A study of Mus musculus with 4 samples.

Results

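The genes described here encode the secreted Wnt ligands (Wnt), their Frizzled receptors (Fzd), the secreted frizzled-related proteins (Sfrp) and Dickkopf proteins (Dkk) that act as antagonists, and the R-spondins (Rspo) that raise Wnt responses. They were chosen by symbol, with earlier results of these data known. The rule took every row of the deposited expression table whose name begins with Wnt, Fzd, Sfrp, Dkk or Rspo followed by a number. This gave 42 of 32230 symbols: 19 Wnt, 10 Fzd, 4 Sfrp, 4 Dkk and 4 Rspo genes, and Fzd10os, a transcript named for the strand opposite Fzd10. The study followed 4F2A mouse embryonic fibroblasts, taken from mid-gestation male homozygous embryos, through the start of their conversion to induced pluripotent stem cells. In 4F2A cells doxycycline switches on a transgene cassette that encodes Oct4, Sox2, Klf4 and Myc. The treated group received CX-5461, an inhibitor of RNA polymerase I, for 1 h on day 0, and the control group received its vehicle DMSO for the same 1 h. Both groups were grown with LIF and with 2 µg/mL doxycycline for 48 h, and RNA was taken on day 2, so the DMSO cells were reprogramming cells as well and not resting fibroblasts. Each group had 2 libraries, numbered 2 and 3.

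Wnt ligands bind Frizzled receptors together with the co-receptors Lrp5 and Lrp6. In the canonical branch this stabilises β-catenin, which acts with TCF and LEF factors on target genes, and in other branches Frizzled receptors signal without β-catenin, to cell polarity or calcium. Sfrp proteins bind the ligands, Dkk1 binds the Lrp co-receptors, and R-spondins protect Frizzled receptors from removal by the ligases Rnf43 and Znrf3. In mouse cells, Wnt signalling is known to sustain the pluripotent state, and its effect on reprogramming is known to depend on the stage.

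Levels are TPM, a transcript measure scaled by gene length and library total. A gene entered the limma test on log2(TPM + 1) when its 4 libraries averaged 1 TPM or more, and it passed at a Benjamini-Hochberg adjusted p under 0.05 over all 14621 genes tested. Each library held 17.7M to 18.8M fragments, as worked back from its TPM column. The fragment here is the commonest step between low values, and whether it stands for a read, a pair or a shared read is not known. DMSO replicate 3 stood apart in its share of mitochondrially encoded TPM, which was 15.3%, against 9.20% to 9.96% in the other 3 libraries. Because TPM is a share of a total, a larger mitochondrial share goes with lower TPM of other genes in that library, and DMSO replicate 3 is named below wherever the call of a member was lost without it. The labels call the 2 libraries of a group parallel replicates without naming separate cultures, so the p-values reflect spread among these libraries alone, and that spread may be technical. With 2 libraries against 2, an exact permutation test cannot give a two-sided p below 0.333, so summed levels are given without a test.

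Of the 42 members, 28 were tested, 14 lay under the 1 TPM minimum, and 3 of these 14 (Wnt3a, Wnt8a and Dkk4) were listed at 0 in every library. With CX-5461, 8 members rose (Wnt4, Wnt10a, Wnt9a, Wnt5a, Fzd10, Fzd8, Sfrp2 and Rspo3), 1 fell (Fzd4), and 19 did not pass. The 8 made up 28.6% of the tested members, against 11.6% of all genes tested that rose, and the 1 made up 3.57%, against 8.21% of all genes tested that fell. The median log2 difference was 0.16 over the tested members and 0.07 over all genes tested. Under 3 rescalings of the libraries (quantile, median-of-ratios, and a total that left out mitochondrial and the 20 highest genes), calls over all genes were balanced, with 1621 to 1652 higher and 1646 to 1687 lower and medians of 0.00202 to 0.0176, while 7 or 8 members were higher and 2 lower. Both CX-5461 libraries lay above both DMSO libraries in 14 tested members, against 38.2% of all genes tested, and below both in 5, against 26.3%. Without CX-5461 replicate 3, 2 members passed, Wnt4 and Fzd10, and over all genes 237 were higher and 364 lower, against 1694 and 1201 with the 4 libraries. In bulk RNA, fewer cells of a type and less RNA per cell cannot be told apart, and this holds for every difference below.

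**Figure D1:**
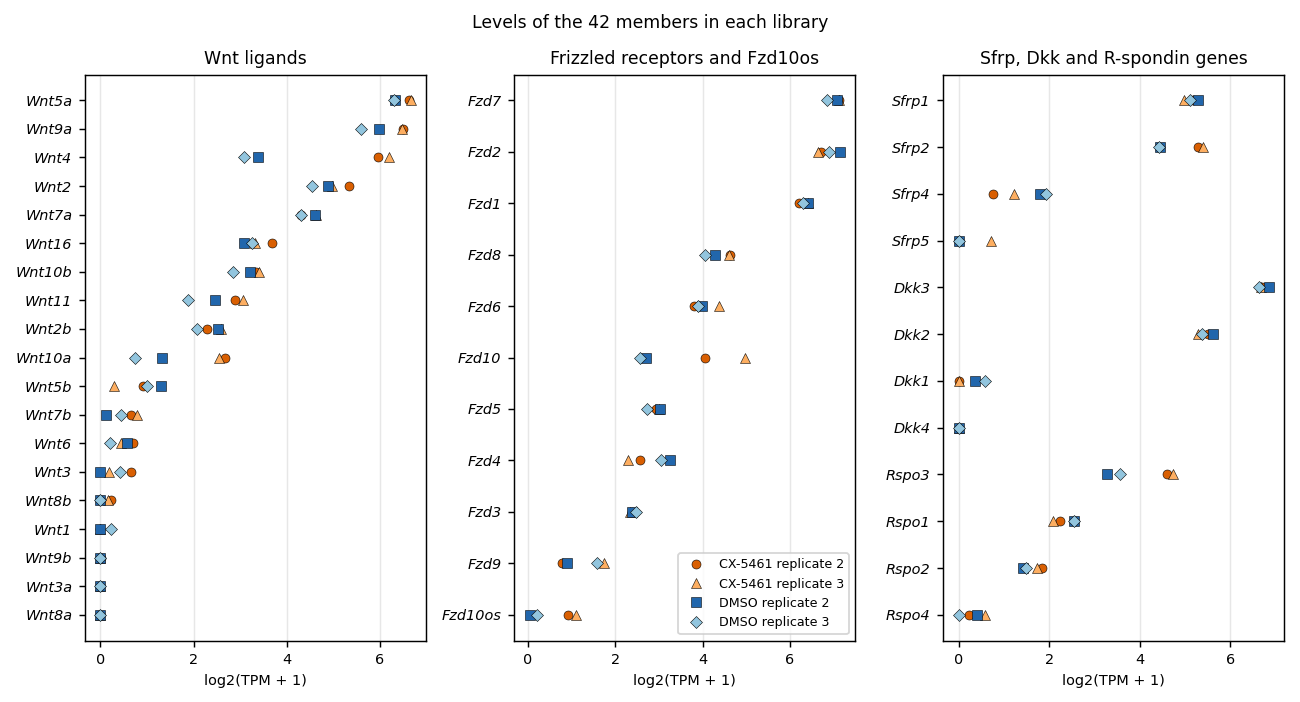
Level of each of the 42 members in each library, as log2(TPM + 1) on the horizontal axis, in panels for Wnt ligands, Frizzled receptors with Fzd10os, and Sfrp, Dkk and R-spondin genes. Orange symbols are the 2 CX-5461 libraries and blue symbols the 2 DMSO libraries; the orange symbols of Wnt4, Wnt10a, Fzd10, Sfrp2 and Rspo3 lie clear to the right of the blue ones, and those of Fzd4 to the left.

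Wnt4 showed the largest difference of the 28 tested members. Wnt4 is a ligand needed in the mouse for kidney tubule formation and ovary development, and its gene lies at chr4:137277489-137299726 on the + strand (mm10, GENCODE annotation). Its level was 60.9 and 72.0 TPM in CX-5461 replicates 2 and 3, and 9.35 and 7.40 TPM in DMSO replicates 2 and 3. Both CX-5461 libraries lay far above both DMSO libraries, and the gap was much wider than the spread within either group. Mean levels were 66.4 ± 7.85 TPM with CX-5461 and 8.38 ± 1.38 TPM with DMSO (SD, n = 2 each), a ratio of 7.93. The log2 difference was 2.85 (SE 0.15, 95% interval 2.49 to 3.21, limma adjusted p = 0.000443). It was covered by 1310 and 1522 fragments in the CX-5461 libraries and by 202 and 180 in the DMSO libraries. Wnt4 passed under every one of the 10 other settings and with any 1 library left out, where its log2 difference ran between 2.699 and 2.999.

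Wnt10a, a ligand of tooth and skin appendage development, also rose, at a low level. It stood at 5.41 and 4.86 TPM in the CX-5461 libraries and at 1.498 and 0.666 TPM in the DMSO libraries. The groups were apart, and the DMSO libraries differed between themselves by more than the CX-5461 libraries did. These levels rested on 68.5 and 60.5 fragments with CX-5461 and on 19 and 9.5 with DMSO, and the DMSO numbers are too few for a firm direction. The log2 difference was 1.59 (SE 0.26, limma adjusted p = 0.0121) and the ratio of mean TPM 4.75. The call was lost without CX-5461 replicate 2 (adjusted p = 0.0954) and without CX-5461 replicate 3 (0.0949).

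Wnt9a and Wnt5a were the most abundant ligands per length in every library, and both rose by less. Wnt9a, a ligand of joint formation, was at 89.0 and 87.5 TPM in the CX-5461 libraries and at 62.2 and 47.2 TPM in the DMSO libraries. Its CX-5461 libraries nearly coincided while its DMSO libraries lay well apart, with DMSO replicate 3 the lowest of the 4. The means were 88.2 ± 1.04 TPM and 54.7 ± 10.6 TPM (SD, n = 2 each), and the log2 difference was 0.69 (SE 0.14, limma adjusted p = 0.0241). Wnt5a, best known for signalling without β-catenin and for limb outgrowth in the mouse, was at 98.2 and 99.8 TPM with CX-5461 and at 79.2 and 78.4 TPM with DMSO. Both groups were tight and did not overlap. The log2 difference of Wnt5a was 0.33 (SE 0.08, limma adjusted p = 0.0390), and the ratio of means was 1.26. The Wnt9a call was lost without CX-5461 replicate 2 or 3 (adjusted p = 0.145 and 0.158), with no filter (0.0604) and without limma's trend and robust options (0.0607). The Wnt5a call was lost without CX-5461 replicate 2, CX-5461 replicate 3 or DMSO replicate 3 (adjusted p = 0.220, 0.271 and 0.0642), under 3 rescalings of the libraries (0.0560 to 0.0906), with no filter (0.0645), and without limma's trend and robust options (0.0928).

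The other 6 tested ligands did not pass. Wnt2, a ligand of lung and vascular development, was at 39.5 and 30.3 TPM with CX-5461 and at 28.7 and 22.2 TPM with DMSO, so its groups did not overlap. Its log2 difference was 0.44 (limma adjusted p = 0.141). Wnt7a, which patterns the dorsal limb, was at 18.6 and 23.8 TPM with CX-5461 and at 23.5 and 18.8 TPM with DMSO. The 2 groups of Wnt7a covered the same range, the log2 difference was -0.000184 (above 0 at a pseudocount of 5) and its 95% interval ran between -0.41 and 0.41. Wnt11, which acts in kidney branching and in polarity signalling, had 6.43 and 7.36 TPM with CX-5461 and 4.51 and 2.70 TPM with DMSO. Its groups did not overlap, but the log2 difference of 0.80 had a limma adjusted p of 0.0628, and it passed under quantile normalization (0.0378), with voom on recovered fragments (0.00782) and without DMSO replicate 2 (0.0346). The log2 differences of Wnt10b, Wnt16 and Wnt2b were 0.35, 0.34 and 0.15.

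Summed over the 19 ligands, the level was 346 and 351 TPM in the CX-5461 libraries and 231 and 197 TPM in the DMSO libraries. Wnt4 accounted for 58.0 TPM of the 134 TPM between the 2 group means, Wnt9a for 33.5 TPM and Wnt5a for 20.2 TPM. Wnt4 supplied 17.6% and 20.5% of the ligand TPM with CX-5461, where it ranked 3, and 4.04% and 3.75% with DMSO, where it ranked 5 and 6. Wnt5a ranked 1 and Wnt9a ranked 2 in all 4 libraries. The order of the leading pair was thus shared by both groups, and the place of Wnt4 behind them was not.

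Among the receptors, 2 of 10 rose, 1 fell and 7 did not pass. The shares that rose and fell were 20% and 10%, against 11.6% and 8.21% of all genes tested. Fzd10, a Frizzled gene without introns at chr5:128600844-128604093 on the + strand, had 15.8 and 30.2 TPM with CX-5461 and 5.54 and 4.95 TPM with DMSO. Both CX-5461 libraries were higher than both DMSO libraries. In TPM, the CX-5461 libraries lay farther from each other than CX-5461 replicate 2 lay from the DMSO pair. On log2(TPM + 1) the reverse held. The means were 23.0 ± 10.2 TPM and 5.24 ± 0.416 TPM (SD, n = 2 each). The log2 difference was 1.87 (SE 0.30, 95% interval 1.10 to 2.65, limma adjusted p = 0.0155). Fragments were 263 and 495 with CX-5461 and 92.5 and 93 with DMSO. With 1 library left out, the log2 difference ran between 1.43 and 2.32, and the call was lost without DMSO replicate 3 (adjusted p = 0.0728).

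Fzd10os lies at chr5:128579106-128600693 on the - strand, 150 bases before the start of Fzd10 and not overlapping it. It had 0.890 and 1.15 TPM with CX-5461 and 0.0287 and 0.153 TPM with DMSO, from 15.5 and 19.8 fragments with CX-5461 and 0.5 and 3 with DMSO. Its mean lay under the 1 TPM minimum. With no minimum, its log2 difference was 0.89 (limma adjusted p = 0.0437). Both genes of this divergent pair were thus listed higher in both CX-5461 libraries, but Fzd10os rested on too few fragments for a firm direction.

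Fzd8, a receptor whose ligand-binding domain is known from crystal structures with a Wnt, had 23.7 and 23.5 TPM with CX-5461 and 18.5 and 15.7 TPM with DMSO. The groups were apart, and the log2 difference was 0.45 (SE 0.12, limma adjusted p = 0.0489), just inside the threshold. The call was lost without CX-5461 replicate 2, CX-5461 replicate 3 or DMSO replicate 3 (adjusted p = 0.219, 0.235 and 0.117), with no filter (0.0907) and without limma's trend and robust options (0.0817). Fzd4, the receptor of Norrin in retinal vessels, was the member that fell. It had 4.91 and 3.93 TPM with CX-5461 and 8.57 and 7.30 TPM with DMSO, with both CX-5461 libraries below both DMSO libraries. The ratio of mean TPM was 0.557 and the log2 difference -0.72 (SE 0.17, limma adjusted p = 0.0369). The Fzd4 call was lost with any 1 library left out (adjusted p between 0.0851 and 0.205) and with no filter (0.0720).

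The 3 most abundant receptors per length did not pass. Fzd7, a Frizzled gene expressed in pluripotent cells, was at 138 and 139 TPM with CX-5461 and at 133 and 114 TPM with DMSO, a log2 difference of 0.16 (limma adjusted p = 0.302). Fzd2 was at 103 and 99.6 TPM with CX-5461 and at 140.3 and 118 TPM with DMSO, with both CX-5461 libraries below both DMSO libraries. The log2 difference of Fzd2 was -0.34 (limma adjusted p = 0.0775), and it passed as lower under 3 rescalings (0.0170 to 0.0230), with voom on recovered fragments (0.00196) and without DMSO replicate 3 (0.0354). Fzd1 was at 72.6 and 84.4 TPM with CX-5461 and at 84.7 and 77.8 TPM with DMSO, overlapping groups with a log2 difference of -0.05. The polarity receptors Fzd6 and Fzd3 differed by 0.14 and -0.06 on the log2 scale, Fzd5 by 0.09 and Fzd9 by 0.03, which turned below 0 under median-of-ratios scaling, rescaling without the highest genes, and voom.

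The summed receptor level was 383 and 413 TPM with CX-5461 and 418 and 364 TPM with DMSO, so the groups overlapped. Within that sum, Fzd7 ranked 1 and Fzd2 ranked 2 with CX-5461, and Fzd2 ranked 1 and Fzd7 ranked 2 with DMSO. Fzd10 ranked 5 and 4 with CX-5461 and 8 in both DMSO libraries.

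**Figure D2:**
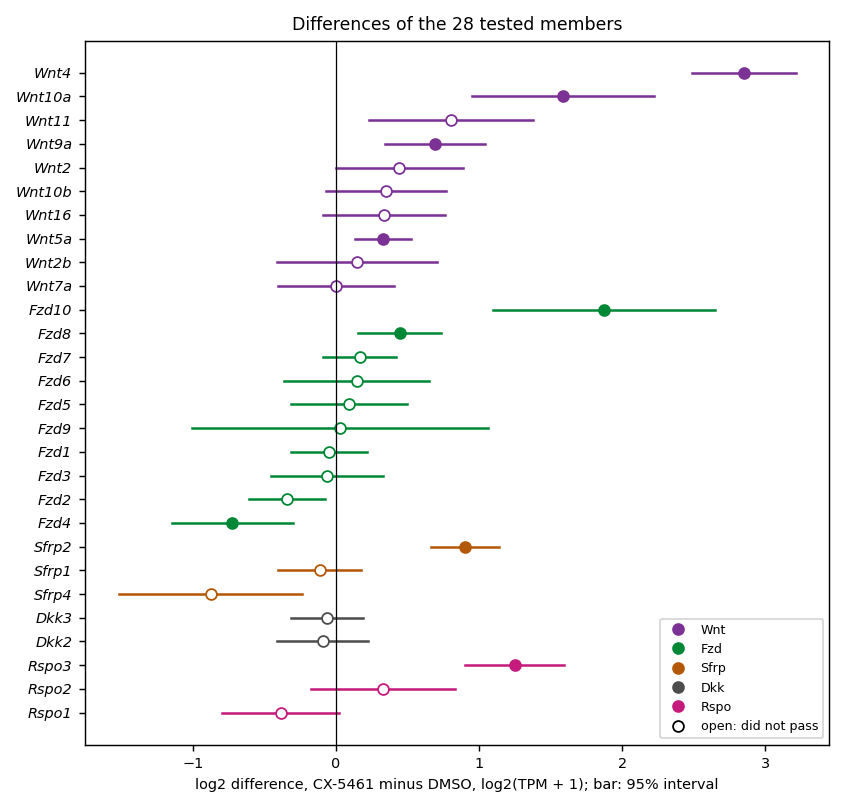
Log2 difference, CX-5461 minus DMSO, on log2(TPM + 1) for the 28 tested members, ordered within each family, with bars for the 95% interval from limma. Filled points passed at an adjusted p under 0.05; Wnt4 at 2.85 and Fzd10 at 1.87 lie farthest right, and Fzd4 at -0.72 is the filled point left of 0.

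Of the antagonists, 5 were tested and Sfrp2 alone passed. Sfrp2, a secreted Wnt-binding protein of mesenchymal cells at chr3:83766321-83774316 on the + strand, had 37.9 and 41.3 TPM with CX-5461 and 20.9 and 20.5 TPM with DMSO. The groups were far apart next to the spread within each. The means were 39.6 ± 2.41 TPM and 20.7 ± 0.275 TPM (SD, n = 2 each), and the log2 difference was 0.90 (SE 0.10, 95% interval 0.66 to 1.14, limma adjusted p = 0.00341). The call was lost without CX-5461 replicate 3 (adjusted p = 0.0547). GENCODE annotates an antisense gene over Sfrp2, and others over Wnt5a and Rspo3. Whether the counting used strand is not given in the sources used here, so reads of these genes and their antisense partners cannot be told apart.

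Sfrp1, the other abundant gene of this family, had 35.4 and 30.7 TPM with CX-5461 and 38.0 and 33.6 TPM with DMSO. The groups overlapped and the log2 difference was -0.11. Sfrp4 had 0.676 and 1.33 TPM with CX-5461 and 2.44 and 2.81 TPM with DMSO. Its groups were apart, the log2 difference was -0.88 (limma adjusted p = 0.0673), and it passed as lower with voom (0.00538). Sfrp2 supplied 51.2% and 55.9% of the Sfrp TPM with CX-5461, ahead of Sfrp1, and 34.0% and 36.0% with DMSO, behind Sfrp1. The summed level was 73.9 TPM in both CX-5461 libraries and 61.3 and 56.9 TPM in the DMSO libraries.

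Neither of the tested Dkk genes passed with limma, and neither had an unadjusted p under 0.05. Dkk3, a divergent family member not known to bind Lrp6, had 102 and 101 TPM with CX-5461 and 114 and 98.3 TPM with DMSO, a log2 difference of -0.06 (95% interval -0.31 to 0.19). Dkk2 had 44.5 and 38.0 TPM with CX-5461 and 47.9 and 40.2 TPM with DMSO, a log2 difference of -0.09 (95% interval -0.41 to 0.23). In both genes the groups overlapped. Dkk1, the Lrp-binding inhibitor of the canonical branch, was listed at 0 in both CX-5461 libraries and had 0.281 and 0.499 TPM in the DMSO libraries, from 3.5 and 7 fragments. At this depth no fold can be given for Dkk1.

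Rspo3 rose among the R-spondins. This ligand of Lgr4, Lgr5 and Lgr6 is known for vessel and placenta development in the mouse, and its gene lies at chr10:29452416-29535867 on the - strand. It had 23.3 and 25.8 TPM with CX-5461 and 8.74 and 10.8 TPM with DMSO. The lowest CX-5461 library lay well above the highest DMSO library. The means were 24.5 ± 1.75 TPM and 9.79 ± 1.49 TPM (SD, n = 2 each), a ratio of 2.51, and the log2 difference was 1.25 (SE 0.14, 95% interval 0.90 to 1.59, limma adjusted p = 0.00394). The call was lost without CX-5461 replicate 3 (adjusted p = 0.0546). Rspo1 and Rspo2 did not pass, with log2 differences of -0.39 and 0.33. Rspo3 made up 78.4% and 81.1% of the R-spondin TPM with CX-5461 and 56.2% and 62.0% with DMSO, and the summed level was 29.7 and 31.8 TPM with CX-5461 and 15.5 and 17.5 TPM with DMSO.

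**Figure D3:**
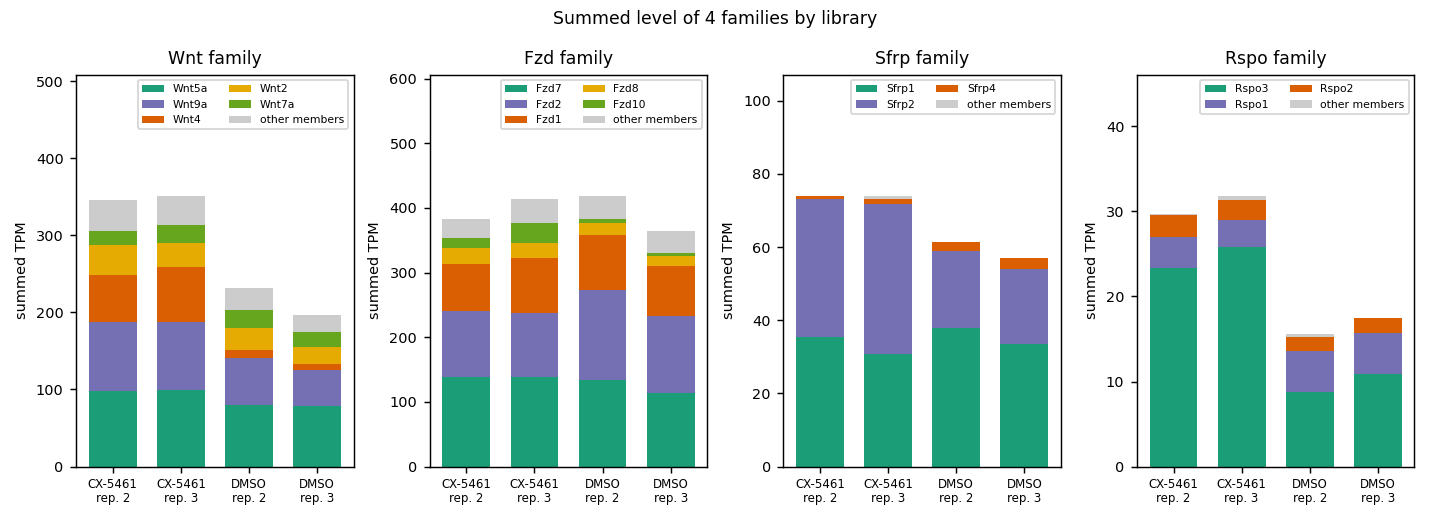
Summed TPM of the Wnt, Fzd, Sfrp and Rspo families in each library, stacked by member, with CX-5461 libraries left of DMSO libraries. The Wnt bars reach 346 and 351 TPM with CX-5461 and 231 and 197 TPM with DMSO, with Wnt4 as the widest gain; the Fzd bars overlap between groups.

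Among the 14 members under the minimum, levels ran between 0 and 1.47 TPM. Besides Fzd10os and Dkk1, those that reached 0.3 TPM in a library were Wnt5b, Wnt7b, Wnt6, Wnt3, Sfrp5 and Rspo4. Wnt5b had 0.881 and 0.224 TPM with CX-5461 and 1.47 and 1.01 TPM with DMSO. Wnt7b had 0.577 and 0.729 TPM with CX-5461 and 0.0794 and 0.353 TPM with DMSO. Fbxl14, a protein-coding gene on the opposite strand that overlaps Wnt5b, had 33.9 to 39.5 TPM, and its reads cannot be told apart from those of Wnt5b where strand was not used. The groups of Wnt5b and Wnt7b were apart in opposite directions, each from at most 20 fragments per library. Wnt6, the same-strand neighbour that lies 6193 bases from Wnt10a, had 0.622 and 0.362 TPM with CX-5461 and 0.488 and 0.158 TPM with DMSO. Its groups overlapped, but from at most 7 fragments per library, too few for a contrast with Wnt10a. An antisense gene is annotated over Wnt6 as well. Wnt3a, the opposite-strand neighbour 16175 bases from Wnt9a, was listed at 0 in every library.

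The stretches that precede the starts of 5 genes are shown. Wnt4 is the ligand with the largest difference, Wnt9a an abundant ligand that rose, Fzd4 the receptor that fell and Sfrp2 the antagonist that rose. Wnt11 did not pass, and is shown because a window of it held both motifs searched. The stretches are taken from RefSeq, build GRCm38.p6 (mm10), 5′ to 3′ on the gene's strand, and stop before the first annotated base of the gene. Capitals mark a match to the TCF/LEF core CTTTGA on either strand or to the p53 decamer, the unit repeated in p53 response elements.
Wnt4, chr4:137277385-137277488, + strand: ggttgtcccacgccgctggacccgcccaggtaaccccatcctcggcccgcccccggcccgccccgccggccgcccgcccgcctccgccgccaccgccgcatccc
Wnt9a, chr11:59306680-59306927, + strand: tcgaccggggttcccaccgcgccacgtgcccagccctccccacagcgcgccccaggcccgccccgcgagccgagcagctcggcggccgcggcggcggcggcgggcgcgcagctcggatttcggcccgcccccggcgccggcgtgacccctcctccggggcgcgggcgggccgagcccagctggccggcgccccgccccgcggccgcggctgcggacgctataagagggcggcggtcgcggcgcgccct
Wnt11, chr7:98834862-98835111, + strand: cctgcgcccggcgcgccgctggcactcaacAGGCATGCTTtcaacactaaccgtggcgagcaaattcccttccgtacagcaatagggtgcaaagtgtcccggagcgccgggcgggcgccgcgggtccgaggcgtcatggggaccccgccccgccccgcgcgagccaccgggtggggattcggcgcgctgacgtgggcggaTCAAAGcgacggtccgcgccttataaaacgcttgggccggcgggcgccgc
Fzd4, chr7:89404116-89404354, + strand: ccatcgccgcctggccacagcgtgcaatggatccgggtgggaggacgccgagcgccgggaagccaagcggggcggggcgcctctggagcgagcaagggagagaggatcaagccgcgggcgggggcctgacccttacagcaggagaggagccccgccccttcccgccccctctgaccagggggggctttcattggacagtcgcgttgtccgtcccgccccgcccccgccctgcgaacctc
Sfrp2, chr3:83766071-83766320, + strand: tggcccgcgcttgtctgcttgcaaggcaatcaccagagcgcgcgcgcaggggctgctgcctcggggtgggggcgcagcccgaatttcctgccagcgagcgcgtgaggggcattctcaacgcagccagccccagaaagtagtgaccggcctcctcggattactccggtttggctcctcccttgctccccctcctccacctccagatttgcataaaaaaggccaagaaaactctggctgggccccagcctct
In Wnt11, the capitals nearer the 3′ end are the TCF/LEF core, which begins 50 bases before this RefSeq start. The capitals nearer the 5′ end are the p53 decamer, which begins 220 bases before it. Another RefSeq window of Wnt11, chr7:98838595-98838844, held neither and is not shown. A 250-base window before a RefSeq start was at hand for 27 of the 42 members, giving 30 windows. The TCF/LEF core lay in 4 of these 30 windows, against 13.8% of 32851 windows of all genes, and the p53 decamer in 1 of 30, against 7.13%. The full windows of Wnt4, Wnt9a, Fzd4 and Sfrp2 held neither, which says only that these letters are not there. The windows were rich in G and C, with 85.2% in Wnt4 and 84.4% in Wnt9a, and 28 of the 30 lay above the median of all windows, 52.4%.

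The rest of the pathway was followed in 95 genes in 5 lists, of which 84 were tested. With CX-5461, 10 rose, 9 fell and 65 did not pass, which is 11.9% and 10.7% of those tested, against 11.6% and 8.21% of all genes. Their median log2 difference was 0.09. Without CX-5461 replicate 3, none of the 84 passed with limma, while 9 were higher and 11 lower at an unadjusted p under 0.05. Without CX-5461 replicate 2, 1 was higher and 1 lower, and without DMSO replicate 3, 5 were higher and 6 lower. The shares that rose and fell were thus near those of all genes. The loss without CX-5461 replicate 3 holds for every call of a pathway gene named below, also where it is not repeated. Without CX-5461 replicate 2, every such call but those of Notum and Apcdd1 was lost as well.

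Of 24 tested receptor partners, 1 rose and 3 fell (4.17% and 12.5%, against 11.6% and 8.21% of all genes tested). Ptk7, a receptor-like protein of planar polarity, had 443 and 448 TPM with CX-5461 and 326 and 291 TPM with DMSO (log2 difference 0.53, limma adjusted p = 0.0134). Adgra2, which with Reck forms the Wnt7-specific receptor complex of brain vessels, had 154 and 150 TPM with CX-5461 and 260 and 235 TPM with DMSO (log2 difference -0.70, adjusted p = 0.00534). The groups of both genes were tight and apart. The R-spondin receptor Lgr5 had 6.86 and 5.49 TPM with CX-5461 and 11.4 and 9.85 TPM with DMSO (-0.70, adjusted p = 0.0345). The Lgr5 call was lost with any 1 library left out (0.0821 to 0.198) and with no filter (0.0698). The glypican Gpc6 fell by 0.48 on the log2 scale (adjusted p = 0.0250). The Gpc6 call was lost with no filter (0.054), without limma's trend and robust options (0.0609), and without DMSO replicate 3. Lrp5 and Lrp6, outside the naming rule and added after their values were seen, did not pass, with log2 differences of 0.09 and -0.10.

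Among 11 tested genes of ligand secretion and other extracellular antagonists, 3 rose and 2 fell. These were 27.3% and 18.2% of those tested, against 11.6% and 8.21% of all genes tested. Notum, the enzyme that strips the lipid from Wnt ligands and so inactivates them, had 56.9 and 76.2 TPM with CX-5461 and 29.2 and 23.5 TPM with DMSO (log2 difference 1.30, limma adjusted p = 0.00752). The Lrp-binding antagonist Sostdc1 rose by 1.03 (adjusted p = 0.0244) on the same scale. The Sostdc1 call was lost with no filter (0.0604) and without DMSO replicate 3. The Dickkopf-like gene Dkkl1 rose by 1.31 (adjusted p = 0.0269), from 20 and 23 fragments with CX-5461 and 2 and 7 with DMSO. Its log2 difference ran between 0.48 and 2.37 under the other settings, and its call was lost without DMSO replicate 2. Dkkl1 averaged 2.68 TPM with CX-5461 and 0.51 TPM with DMSO, so it met the 1 TPM minimum only through the CX-5461 libraries. Its rise is thus no support for a direction of this list. Apcdd1, a membrane-bound Wnt inhibitor, had 17.2 and 15.95 TPM with CX-5461 and 32.1 and 29.7 TPM with DMSO (-0.86, adjusted p = 0.00482). Igfbp4, an IGF-binding protein that also blocks Wnt receptors, fell by 0.63 (adjusted p = 0.0144). Antagonists thus stood on both sides, with Sfrp2, Notum and Sostdc1 higher and Apcdd1 and Igfbp4 lower.

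Of 22 tested cytoplasmic genes, 2 rose and 1 fell (9.09% and 4.55%, against 11.6% and 8.21% of all genes tested). Apc2, a relative of the β-catenin destruction protein Apc, rose by 1.21 on the log2 scale (limma adjusted p = 0.0206). The Apc2 call was lost with no filter (0.0535) and without DMSO replicate 3. Tnks2, a tankyrase that marks axin for degradation, rose by 0.61 (adjusted p = 0.0140). Ccdc88c, a Dishevelled-binding protein, fell by 0.98 (adjusted p = 0.0217). The Ccdc88c call was lost with any 1 library left out, where its log2 difference ran between -1.13 and -0.836. Ctnnb1, which encodes β-catenin, had 541 and 548 TPM with CX-5461 and 542 and 440.1 TPM with DMSO, and did not pass (0.16, adjusted p = 0.387).

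Of 14 tested nuclear factors, the corepressor Tle1 rose by 0.36 on the log2 scale (limma adjusted p = 0.0490), and 2 fell. The shares that rose and fell were 7.14% and 14.3%, against 11.6% and 8.21% of all genes tested. The Tle1 call was lost under the 3 rescalings (0.0719 to 0.0824), with no filter (0.0784), without limma's trend and robust options (0.0761) and with any 1 library left out (0.0814 to 0.266). Tcf7l1, the mainly repressive TCF of mouse embryonic stem cells, fell by 0.67 (adjusted p = 0.00964), and the repressor Hic1 by 0.39 (adjusted p = 0.0428). The Hic1 call was lost with no filter (0.0801), without limma's trend and robust options (0.0909), and without CX-5461 replicate 2, CX-5461 replicate 3 or DMSO replicate 2 (0.184, 0.264 and 0.0805). Tcf7 did not pass (-0.32, adjusted p = 0.165), and Lef1 lay under the minimum at 0.510 and 0.593 TPM with CX-5461 and 0.127 and 0.330 TPM with DMSO.

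Of 18 tested target genes, 4 rose and 2 fell (22.2% and 11.1%, against 11.6% and 8.21% of all genes tested). Axin2, a feedback inhibitor and widely used readout of the canonical branch, had 36.8 and 39.9 TPM with CX-5461 and 27.1 and 24.96 TPM with DMSO (log2 difference 0.54, limma adjusted p = 0.0179). Its groups were apart, and the call was lost without CX-5461 replicate 2, CX-5461 replicate 3 or DMSO replicate 3 (0.0984, 0.163 and 0.0611). Notum, which is in this list too, and Fosl1, an AP-1 factor (0.77, adjusted p = 0.0260), rose with it, as did Ccn5 (0.63, adjusted p = 0.0330), which falls outside the naming rule and was added after its value was seen. The Fosl1 call was lost with no filter (adjusted p = 0.0644), without limma's trend and robust options (0.0607), and without DMSO replicate 2. Lgr5 was on the list as a target as well and fell. Myc fell by 0.70 (adjusted p = 0.00643), but transcripts of the cassette and of the cells' own Myc gene cannot be told apart in this table.

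**Figure D4:**
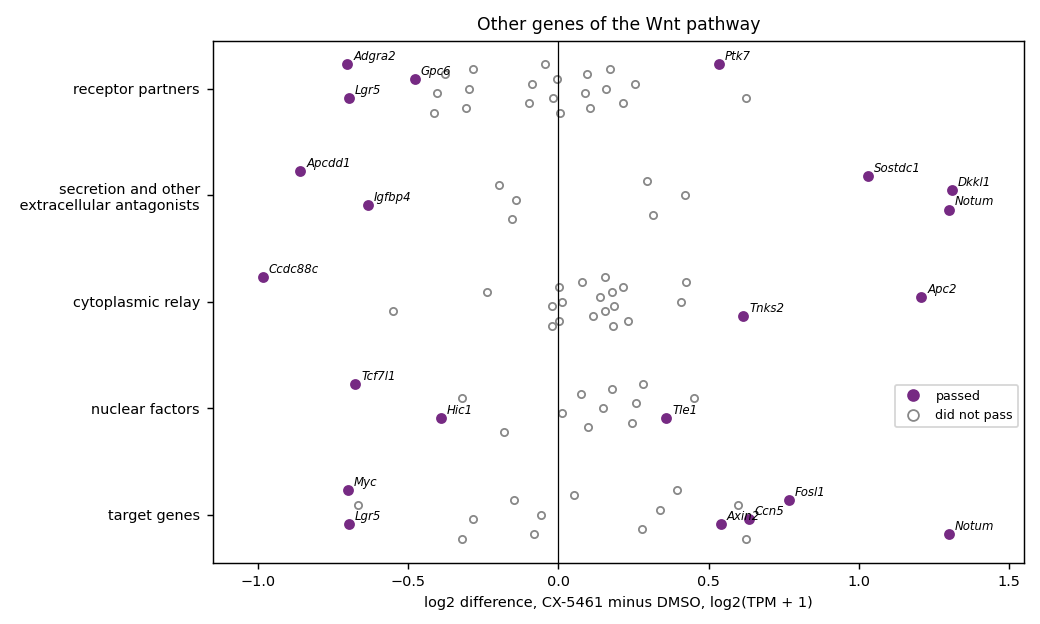
Log2 difference, CX-5461 minus DMSO, on log2(TPM + 1) for the 84 tested genes of 5 lists of other Wnt pathway genes, with rows for the lists (Notum, Lgr5 and others on more than 1 list appear in each). Filled points passed at an adjusted p under 0.05 and are named; they lie on both sides of 0, with Notum at 1.30 and Ccdc88c at -0.98.

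Markers of cell types moved with the groups as well. Of 12 fibroblast markers, all tested, 8 (66.7%) fell with CX-5461, against 8.21% of all genes tested. The 12 markers summed to 9482 and 9184 TPM with CX-5461 and 13130 and 10800 TPM with DMSO. Among 5 tested macrophage markers, Lyz2 (log2 difference 0.65) and Adgre1 (0.90) rose, which is 40%, against 11.6% of all genes tested. The list of 6 summed to 865 and 973 TPM with CX-5461 and 604 and 605 TPM with DMSO. Lyz2 supplied most of that sum, at 775 and 855 TPM with CX-5461 and 528 and 508 TPM with DMSO. The other 5 summed to 90.1 and 118 TPM with CX-5461 and 75.9 and 97.7 TPM with DMSO, so without Lyz2 the groups overlapped, and Csf1r, Cd68 and C1qa did not pass. Of the endothelial markers, Kdr rose by 1.78 and Tek fell by 0.39 on the log2 scale, Pecam1 and Cdh5 were at most 0.0937 and 0.324 TPM in any library, and the list summed to 58.3 and 57.2 TPM with CX-5461 and 50.99 and 50.6 TPM with DMSO. None of the 5 tested keratinocyte and 3 tested neural markers passed with limma, while at an unadjusted p under 0.05 the keratinocyte list had 3 higher and 1 lower and the neural list 1 lower. The 8 keratinocyte markers summed to 29.2 and 41.4 TPM with CX-5461 and 33.1 and 38.9 TPM with DMSO. Much of that sum was Krt14, at 10.8 and 18.5 TPM with CX-5461 and 26.4 and 26.9 TPM with DMSO. In the other tested ones, Krt5, Krt10, Lor and Ivl, both CX-5461 libraries lay above both DMSO libraries, so the sum hides opposite directions. The 6 neural markers summed to 229 and 239 TPM with CX-5461 and 263 and 256 TPM with DMSO. Most of that sum was Tubb3, at 187 and 187 TPM with CX-5461 and 219 and 211 TPM with DMSO. Sox10 had 30.2 and 39.7 TPM with CX-5461 and 31.0 and 31.6 TPM with DMSO, and the groups of Sox10 and Map2 overlapped. Skeletal muscle markers summed to at most 0.264 TPM in any library, with Myod1 and Myog at 0. The part of these other cells in the differences of Wnt4, Fzd10, Rspo3, Sfrp2 and the other members was not tested.

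**Figure D5:**
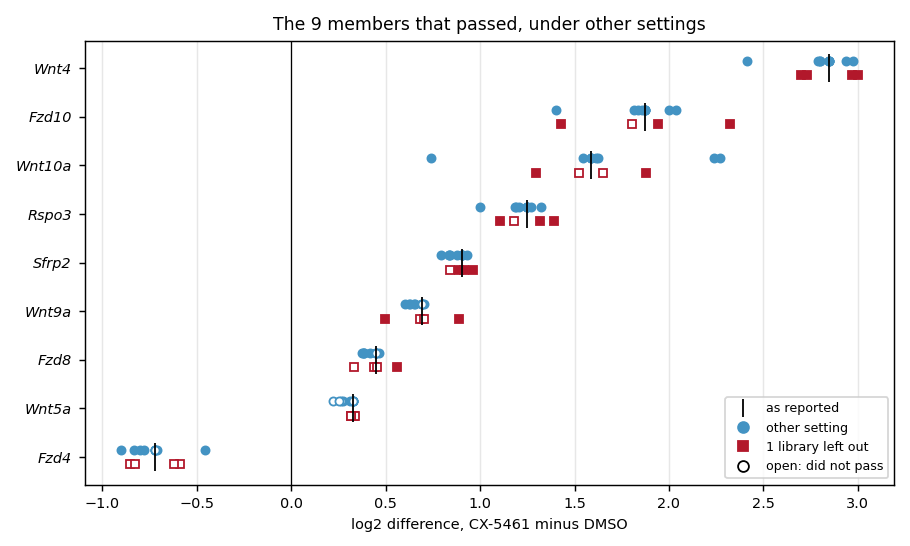
Log2 difference, CX-5461 minus DMSO, of the 9 members that passed, as reported (black line), under 10 other settings (blue circles) and with 1 library left out (red squares); open symbols did not pass. All symbols of Wnt4 are filled, those of Fzd10, Rspo3 and Sfrp2 are open once each, and those of Fzd4 are open with any library left out.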

How the data were processed

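Polyadenylated RNA of 4 libraries, 2 with CX-5461 and 2 with DMSO, was sequenced as paired-end reads of 150 bases, and the sample titles gave each library's group and replicate number. The authors deposited TPM values, with each column summing to 1000000. Per the submitters' processing notes the build was mm10; the aligner and counter were not given in the sources used here. The table had 0 unused sample columns.

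Members and gene lists were chosen with earlier results of these data known. The limma test (version 3.58.1, R 4.3.3) used log2(TPM + 1) of genes averaging 1 TPM or more (trend and robust; 2 residual and 3.75 prior degrees of freedom), without covariates, and p-values were adjusted by Benjamini-Hochberg. The log2(TPM + 1) scale understates changes of low genes. GENCODE M21 gave coordinates and exon lengths for 30067 of the symbols, 497 of which were found under another RefSeq name. Fragments were recovered as TPM times exon length times a constant per library, with the commonest low step taken as 1 fragment. Of values under 2000 fragments, 37.6% to 38.9% were whole within 0.01 (2% by chance) and 87.8% to 88.3% lay on steps of 0.25 (8% by chance), so recovered numbers need not be whole. Of the members' values above 0, 140 of 141 lay on such steps. All tested members are named, with values per library for those that passed or had a mean of at least 20 TPM, and untested ones where they reached 0.3 TPM. Other pathway genes are named up to 3 per list and direction by smallest p, besides Axin2, Lef1, Tcf7 and Ctnnb1; Lrp5, Lrp6 and Ccn5 were added outside this rule after their values were seen. The procedure was tested on simulated data. Other settings were pseudocounts of 0.1 and 5, no filter, a filter of 5 TPM, 3 rescalings, plain eBayes, a replicate block, voom on the recovered fragments, and each library left out, whose group's lone library is assumed to vary like the other group. Python 3.11.15, numpy 2.4.6, pandas 2.3.3 and matplotlib 3.10.9 were used.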

Additional observations from a re-analysis of the deposited data

How the results depend on the processing

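Wnt4 passed under all 10 other settings and with any 1 library left out. With no filter, 1051 of all genes were higher, 5 pathway genes were higher and 0 members were lower by limma, against 4 members lower at an unadjusted p under 0.05. Without limma's trend and robust options, 1128 of all genes and 5 members were higher. With voom on recovered fragments, 2212 of all genes were lower, 3 members were lower, and 17 pathway genes were higher and 16 lower. Members lower were 2 (Fzd4 and Fzd2) under each of 3 rescalings: quantile normalization, median-of-ratios scaling, and rescaling that left out mitochondrial and the 20 highest genes. With 1 library left out, counts ran over 237 to 2047 for all genes higher, 364 to 891 for all genes lower, 2 to 9 for members higher, 0 to 1 for members lower, 0 to 16 for pathway genes higher and 0 to 6 for pathway genes lower. Members lower at an unadjusted p under 0.05 were then 1 or 2. The log2 difference of Wnt7a turned to 7.95e-05 at a pseudocount of 5. That of Fzd9 turned to -0.0180 under median-of-ratios scaling, -0.0242 under rescaling without the highest genes and -0.0679 with voom. With 1 library left out, members near 0 crossed it: Fzd1 ran between -0.158 and 0.0551, Wnt7a between -0.17 and 0.17, Dkk2 between -0.215 and 0.0303, Dkk3 between -0.170 and 0.0471, Fzd6 between -0.14 and 0.43, Fzd9 between -0.45 and 0.50, Fzd5 between -0.0624 and 0.245, and Wnt2b between -0.0792 and 0.371. The libraries share only a replicate number: deviations of same-numbered libraries had a correlation of 0.0307. With the replicate block, 7 members were higher and 1 lower (Wnt2 gained, at an adjusted p of 0.0410, Wnt5a and Fzd8 lost, at 0.0775 and 0.0566), and 1589 of all genes were higher and 1100 lower. The cause of these changes was not tested. At the recovered depth, members with fewer than about 20 fragments per library allow no firm direction. Fzd10os lay under that number in every library, and Wnt10a in both DMSO libraries. Fzd9 lay under it in replicate 2 of both groups, and Sfrp4 in CX-5461 replicate 2.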
